A study of Rattus norvegicus with 18 samples.

Results

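MHC class II molecules present peptides to T cells, and the other genes described here mark leukocytes, so the 10 genes together show what immune-cell RNA was measurable in cultured heart muscle cells. They are Cd74, Ciita, RT1-Da, RT1-Ba, Ptprc, Csf1r, Aif1, Laptm5, C1qb and Was, out of 12198 genes named by the 2 array designs. All probes whose platform symbol equals one of these names were taken. That gave 14 probes for 10 genes among 33849 probes of the larger design, and 9 probes for 7 genes among 9906 probes of the smaller one (RT1-Ba, Csf1r and Was had no probe there). The genes were listed after values of the contrast between media had been seen, in which Cd74 was low and Was high in conditioned medium. Values of that contrast are therefore given as a description, with no test.

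Neonatal rat cardiomyocytes were isolated from ventricles (n = 24) on Percoll gradients, which enrich muscle cells but do not sort single cells, and kept for 24 h in cardiac medium, at 250000 cells per 100 mm dish. At time zero 6 samples were extracted. In the 4 other groups, of 3 samples each, the medium was diluted to 50% with hESC medium (the growth medium of human embryonic stem cells), either unconditioned or conditioned by stem cells, with FBS held at 5% and HS at 10%, and RNA was extracted at 24 h or 48 h. The larger design carried 4 time zero arrays and 2 of each other group, and the smaller one 2 time zero arrays and 1 of each other group. Nothing in the labels ties samples to separate preparations, so the p-values rest on differences between arrays that may be technical. In whole cultures, fewer cells of a type and less RNA per cell cannot be told apart.

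Class II alpha and beta chains pair in the endoplasmic reticulum with the invariant chain, encoded by Cd74, which blocks the peptide groove until cathepsins remove it. Their genes share an upstream module, the X and Y boxes, which bind the RFX complex and NF-Y and recruit the coactivator CIITA. Resident macrophages are the main leukocytes of the healthy heart and carry Csf1r, Aif1, C1qb and, in part, class II, while Ptprc, Laptm5 and Was are shared by most cells of blood origin.

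The class II promoters are shown because 3 of the 10 genes belong to the pathway that this module controls. The sequences are from RefSeq (build GRCr8) and cover the 250 bases before the annotated start on the plus strand. Capitals mark the core letters of an X box (GCAAC), a Y box (CTGATTGG, or its inner ATTGG in either orientation) and the palindrome TGACGTCA, found by script on both strands. ATTGG is contained in CTGATTGG. Of the 10 genes, 8 had an entry in the promoter table. Cd74 lies at chr18:56526956-56527205, RT1-Da at chr20:4515165-4515414 and RT1-Ba at chr20:4576807-4577056.

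Cd74: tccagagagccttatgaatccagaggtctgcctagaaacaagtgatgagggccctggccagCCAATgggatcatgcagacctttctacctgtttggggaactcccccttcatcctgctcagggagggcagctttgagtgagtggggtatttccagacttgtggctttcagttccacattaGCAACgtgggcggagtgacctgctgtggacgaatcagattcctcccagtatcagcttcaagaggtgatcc

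RT1-Da: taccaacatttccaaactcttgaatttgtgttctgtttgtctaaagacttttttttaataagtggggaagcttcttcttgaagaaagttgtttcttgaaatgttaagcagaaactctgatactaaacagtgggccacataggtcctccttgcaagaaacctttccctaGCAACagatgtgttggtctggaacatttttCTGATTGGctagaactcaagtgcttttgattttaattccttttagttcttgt

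RT1-Ba: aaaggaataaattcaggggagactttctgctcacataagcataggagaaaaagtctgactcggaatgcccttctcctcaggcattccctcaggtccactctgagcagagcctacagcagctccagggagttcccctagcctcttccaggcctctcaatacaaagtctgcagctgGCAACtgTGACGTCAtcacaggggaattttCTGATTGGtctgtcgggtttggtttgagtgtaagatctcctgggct

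In RT1-Da the core of the X box began at -82 and the Y box at -52 relative to the start. In RT1-Ba the same letters began at -76 and -46, with TGACGTCA between them. Both promoters thus held GCAAC and CTGATTGG at 30 bases from start to start, a spacing read from these promoters themselves. It was present in 4 of 33469 promoters (0.012%), and the other 2 belong to the class II alpha genes RT1-DOa and RT1-Ha. Cd74 held GCAAC at -70 and ATTGG on the minus strand at -189, without CTGATTGG in this window. Alone, the letters are frequent, since CTGATTGG occurred in 3.19% of all promoters, ATTGG in 34%, GCAAC in 29.5% and TGACGTCA in 1.59%. Of the 8 promoters, CTGATTGG was in 2, ATTGG in 5, GCAAC in 4 and TGACGTCA in 1.

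Most of these probes were dim. Intensities below are scaled, each array to the median of its table (96.8 on the larger design, 287.2 on the smaller). Values at or below 0.05 of that median (4.84 and 14.4) were set to that floor, where they have no order. A probe was tested if its mean log2 intensity lay above the 30th percentile of all probes, an intensity of 16.5 on the larger and 67.4 on the smaller design. On the larger design 8 of 14 probes, for 6 genes, passed (Cd74, Ciita, Csf1r, Aif1, Laptm5 and Was). The remaining 4 genes, RT1-Da, RT1-Ba, Ptprc and C1qb, were below it. Just inside was a second Ciita probe at a geometric mean of 18.1, and just outside RT1-Da at 11.6. At the floor were 19.6% of the values of these probes at time zero, against 16.4% of all probes. In the other groups it was 28.6% to 35.7%, against 16% to 18%.

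**Figure D1:**
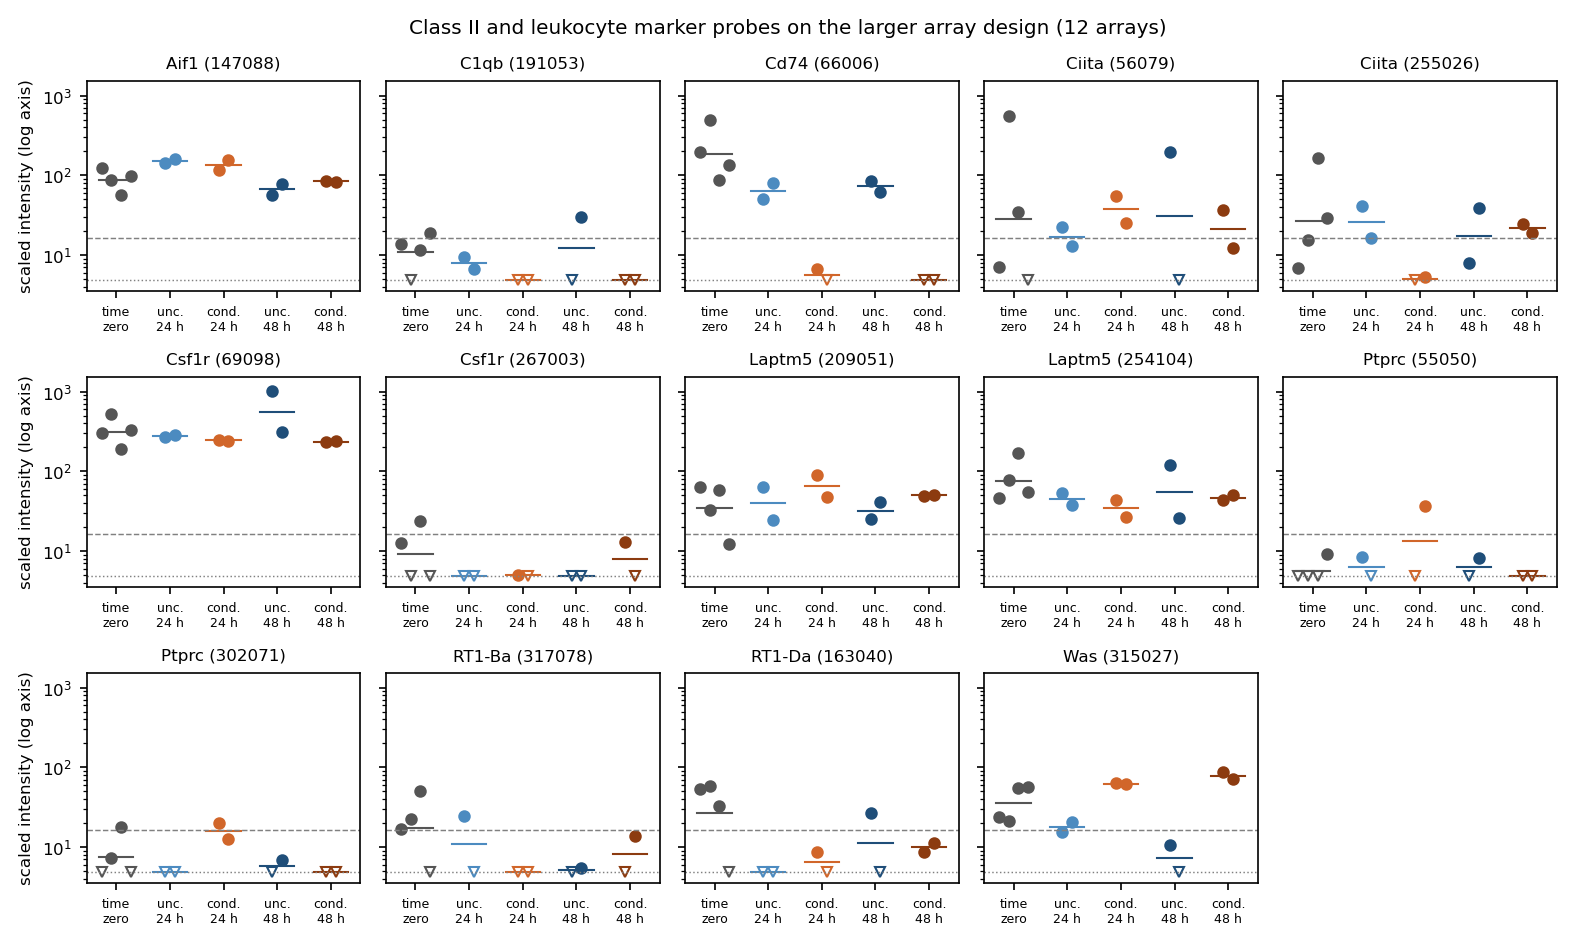
Scaled intensity (log axis) of each of the 14 probes on the 12 arrays of the larger design, by group. Points are arrays, open triangles values at the floor, bars geometric means of a group, the dotted line the floor (4.84) and the dashed line the level for testing (16.5). Cd74 lies near the floor on all 4 conditioned arrays, and Was is lower on the unconditioned than on the conditioned arrays.

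The cultures carried strong cardiomyocyte signal, with all 8 measured cardiomyocyte genes at or above the 99.7th percentile of probes. The lists named here were drawn up with earlier results of these data known. The median percentile of the 10 markers was 36.1, near the median of 23 other macrophage and myeloid genes (30.5) and of 11 pan-leukocyte genes (40.4). It was lower for lymphocyte genes (21.7) and for granulocyte and mast cell genes (14.9). Above the level for testing were 12 of the 23 macrophage and myeloid genes and 8 of the 11 pan-leukocyte genes. It was 3 of 11 lymphocyte genes and 2 of 10 granulocyte and mast cell genes. The defining genes named next were picked after their levels were seen, so how they divide says nothing about the lists. Of these, C1qa, Fcgr3a, Trem2, Lyz2 and Adgre1 of macrophages, Cd3d of T cells and S100a8 of granulocytes were below the level for testing. Cd68 and Tyrobp of myeloid cells were above it, at geometric means of 280.4 and 556.3. A percentile ranks the brightness of probes and does not order genes by transcript number.

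**Figure D2:**
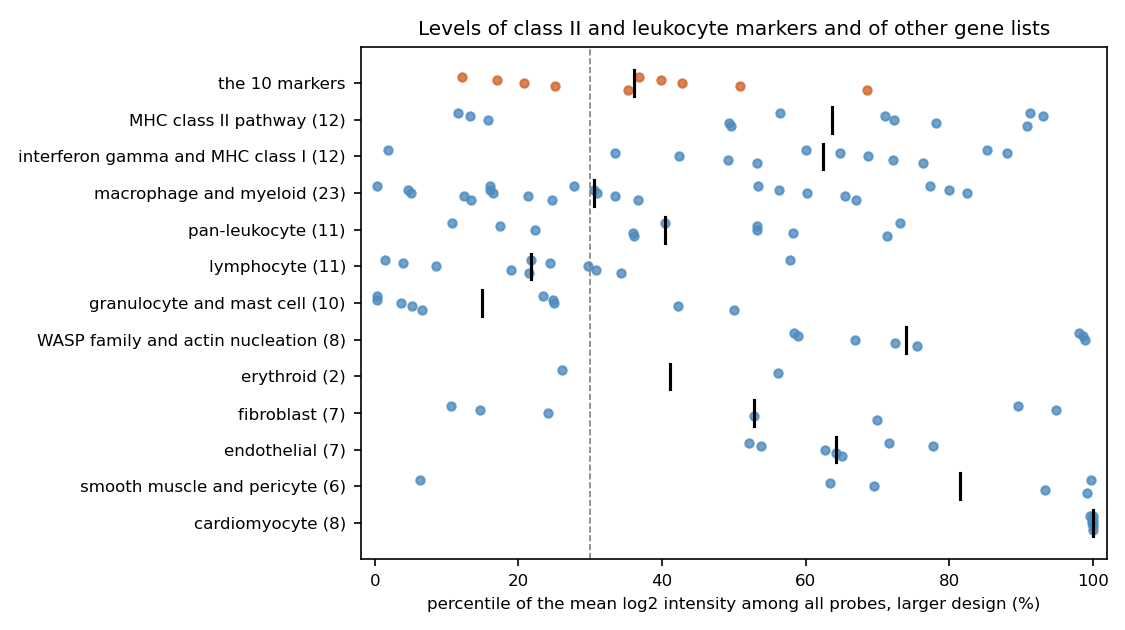
Percentile of the mean log2 intensity among all probes of the larger design for the 10 markers and 12 gene lists, with the number of genes measured in parentheses. Points are genes, black bars list medians and the dashed line the 30th percentile, with the medians of lymphocyte and of granulocyte and mast cell genes left of it.

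In tests over time that include the conditioned arrays known when it was chosen, only Cd74, the invariant chain, passed among the 10 genes. At time zero its intensity was 194.2, 493.7, 88.2 and 135.8 on the 4 arrays. The unconditioned arrays gave 51.0 and 80.9 at 24 h. At 48 h they gave 85.7 and 61.5. Of the conditioned arrays 1 gave 6.63 at 24 h, and the other 3 were at the floor at 24 h and 48 h. No array of either time reached the lowest time zero array, though that array and unconditioned 48 h replicate 2 were close (88.2 and 85.7). Arrays lay apart in this direction for 1.14% of all probes at 24 h and 2.55% at 48 h.

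Over both media, Cd74 fell by 3.45 ± 0.54 (log2, SE; limma adjusted p = 0.0016) at 24 h and by 3.37 ± 0.54 (limma adjusted p = 0.00076) at 48 h against time zero. Each log2 change has the median over all probes of its fit subtracted, while adjusted p-values test the change before that median was subtracted. Over the probes past the level for testing this median was 0.18 at 24 h and 0.08 at 48 h. In the fit without that level, used for dimmer probes, it was 0.105 and 0.027. The conditioned arrays, known to be low when the gene was chosen, make up the larger share of this average. The p-values, and the shares of probes with arrays lying apart, therefore rest in part on values that chose the gene. They give no independent support for the fall. Unconditioned arrays alone differed from time zero by -1.71 ± 0.66 at 24 h and -1.36 ± 0.66 at 48 h, and conditioned arrays by -5.20 and -5.41, sizes that the chosen floor sets because 3 of these 4 arrays lay at it. The average depends on it too, with -1.78 at 24 h and -1.70 at 48 h under a pseudocount of 0.5 of the median in place of the floor. These values share the time zero arrays and were not tested. Between 24 h and 48 h the change was 0.07 ± 0.54 (limma adjusted p = 1).

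Between media the difference in Cd74 (conditioned minus unconditioned) was -3.51 ± 0.76 at 24 h, -4.08 ± 0.76 at 48 h and -3.79 ± 0.54 for the times together. Its size is set by the floor, since 3 of 4 conditioned arrays lay there. With a floor of 0.2 of the median it was -1.88 over both times, and with a pseudocount of 0.5 of the median -1.28. On the smaller design another probe for the same transcript gave a different picture, with 46.7 and 38.7 on the conditioned arrays at 24 h and 48 h and 69.6 and 37.6 on the unconditioned ones. The difference between media there was 0.06 over both times, without replicates. Time zero was highest on that design too, at 95.8 and 130.2, and the difference from it over both media was -0.84 at 24 h and -1.45 at 48 h.

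**Figure D3:**
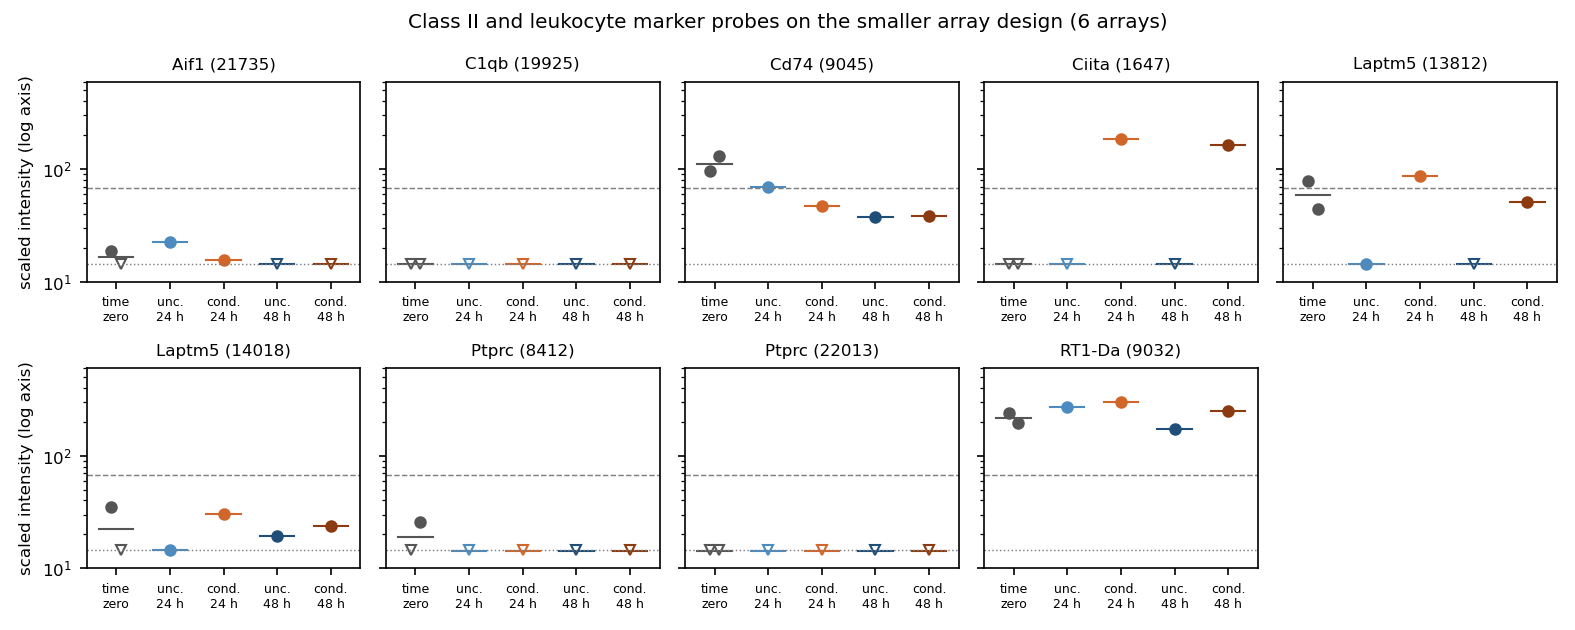
Scaled intensity (log axis) of each of the 9 probes on the 6 arrays of the smaller design, by group, drawn as for the larger design, with the floor at 14.4 and the level for testing at 67.4. Ciita reaches 183.6 and 163.3 on the conditioned arrays and is at the floor on the other 4.

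Ciita encodes the coactivator that switches class II genes on. Its brighter probe on the larger design gave 7.07, 547.3, 34.5 and a value at the floor at time zero. Values at 24 h were 22.4 and 12.8 in unconditioned and 55.5 and 25.4 in conditioned medium. Values at 48 h were 197.8 and a value at the floor without conditioning and 36.3 and 12.4 with it. Groups overlapped except between media at 24 h, and the spread between arrays of a group (residual SD 2.54, log2) was above that of probes of like level (1.04). Neither change from time zero passed, with -0.35 ± 1.27 (limma adjusted p = 0.96) at 24 h and -0.22 ± 1.27 (limma adjusted p = 0.97) at 48 h. With an SE of this size, a change in either direction could be missed. The second probe, of another transcript sequence, did not vary with the first (Pearson r = -0.21 over 12 arrays) and had its highest value, 163.2, on time zero replicate 5. Between media at 24 h its arrays did not overlap either, but in the opposite direction. They gave 3.54, at the floor, and 5.22 in conditioned medium and 41.4 and 16.2 in unconditioned medium (difference -2.38 ± 1.39). No direction is therefore given for the gene.

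On the smaller design the probe for the transcript of the brighter Ciita probe gave 183.6 and 163.3 on the conditioned arrays at 24 h and 48 h. On the 4 unconditioned and time zero arrays it was at the floor. The difference between media was 3.92 over both times on that design and 0.22 ± 1.27 on the larger one, where it ran from -1.23 to 1.66 with single arrays left out. The same 2 conditioned arrays also had the highest medians of that table (376.9 and 415.7, against 213.8 to 330.2) and the lowest ratio of upper to lower quartile (16.6 and 16.3, against 27.2 to 54.1). The part of this in the Ciita values was not tested. Ptprc and C1qb were at the floor on both of these arrays. The difference between media over both times was 2.53 and 1.01 for the Laptm5 probes and 0.66 for RT1-Da. It was 0.06 for Cd74 and 0.05 for Aif1.

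RT1-Da and RT1-Ba encode class II alpha chains. RT1-Da gave 52.9, 59.0, 32.5 and a value at the floor at time zero. Of its 8 later arrays 4 were at the floor, and the highest was 26.3 on unconditioned 48 h replicate 2. RT1-Ba gave 16.7, 22.7, 50.0 and a value at the floor at time zero, and 5 of its 8 later arrays were at the floor, with 24.7 on unconditioned 24 h replicate 2 as the highest. Time zero replicate 6 was at the floor for both genes, and the time zero and later arrays overlapped, for RT1-Ba also without that array. In the fit of all 33849 probes RT1-Da changed from time zero by -2.35 ± 0.83 (limma adjusted p = 0.29) at 24 h and -1.35 ± 0.83 (limma adjusted p = 0.54) at 48 h. RT1-Ba changed by -1.36 ± 0.76 (limma adjusted p = 0.53) and -1.46 ± 0.76 (limma adjusted p = 0.44).

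On the smaller design RT1-Da was the only gene of the 10 above the level for testing. Its values were 238.7 and 193.8 at time zero, 271.6 and 171.9 in unconditioned medium at 24 h and 48 h, and 298.7 and 249.4 in conditioned medium. The difference from time zero over both media was 0.53 at 24 h and 0.04 at 48 h, and the unconditioned 48 h array alone lay below both time zero arrays.

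Of the other genes of class II processing 12 of 13 were measured and 9 tested. None passed in any of the 3 time comparisons, and the median change was -0.17 at 24 h and -0.10 at 48 h against time zero (all probes: 0 by construction). RT1-DMb, a chain of the peptide editor DM, changed by -1.09 ± 0.34 (limma adjusted p = 0.18) at 24 h. Rfxank, a subunit of the RFX complex, changed by -0.82 ± 0.29 (limma adjusted p = 0.16) at 48 h. The beta chain genes RT1-Bb and RT1-Db1 lay below the level for testing. Of the interferon gamma and class I genes 11 were tested. Psmb8, an immunoproteasome subunit, rose by 1.00 ± 0.25 (limma adjusted p = 0.013) at 48 h, the only call in that list. Among all tested probes 3.14% passed at 24 h and 6.92% at 48 h against time zero, and 0.0211% between 48 h and 24 h. Nothing is therefore read from the counts of these 2 lists. Ifng itself was below the level for testing.

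Csf1r, the receptor for the macrophage growth factor CSF1, had the brightest probe of the 10 genes. It gave 298.3, 516.3, 187.6 and 324.7 at time zero. In unconditioned medium it gave 266.1 and 288.0 at 24 h and 1008 and 308.5 at 48 h. In conditioned medium it stayed between 229.5 and 248.7 on the 4 arrays, below all 4 unconditioned arrays. The difference between media was -0.80 ± 0.35 over both times, of which unconditioned 48 h replicate 2 held most, since it was -0.27 without that array, and the same without the 3 arrays that stood apart from the rest. Against time zero the change was -0.44 ± 0.35 (limma adjusted p = 0.75) at 24 h and 0.14 ± 0.35 (limma adjusted p = 0.82) at 48 h. A second Csf1r probe was at the floor on 8 of 12 arrays.

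The 3 arrays are unconditioned 48 h replicate 2 and, at time zero, replicates 4 and 5. They had a ratio of upper to lower quartile of 25.7, 22.5 and 22.4, in that order, against 38.7 to 47.8 on the other 9. On them, probes with neighbouring numbers also deviated together. The correlation of a probe's deviation from its mean with that of the next number was 0.21, 0.32 and 0.17 in the same order, against 0.04 to 0.08 on the other 9 arrays. The labels do not say whether the numbers are places on the array. Around Csf1r, 34 probes with near numbers had a median deviation of 1.33 on unconditioned 48 h replicate 2, where Csf1r itself deviated by 2.03. Around Cd74, 33 such probes deviated by 1.36 on time zero replicate 4, where Cd74 deviated by 4.07, and around Ciita the values were 1.18 and 4.83 on the same array. Around Was they stayed between -0.32 and 0.14 on all 12 arrays.

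With the medians of groups of near numbers subtracted, an adjustment chosen after these values were seen, Cd74 on time zero replicate 4 became 154.6 and Csf1r on unconditioned 48 h replicate 2 became 450.7. Cd74 then fell by 2.90 (limma adjusted p = 0.0015) at 24 h and changed by -2.92 (limma adjusted p = 0.00055) at 48 h. Without the 3 arrays Cd74 fell by 3.05 at 24 h and changed by -3.21 at 48 h. Both settings keep the conditioned arrays, known to be low when Cd74 was chosen. The p-values therefore give no independent support for the fall.

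**Figure D4:**
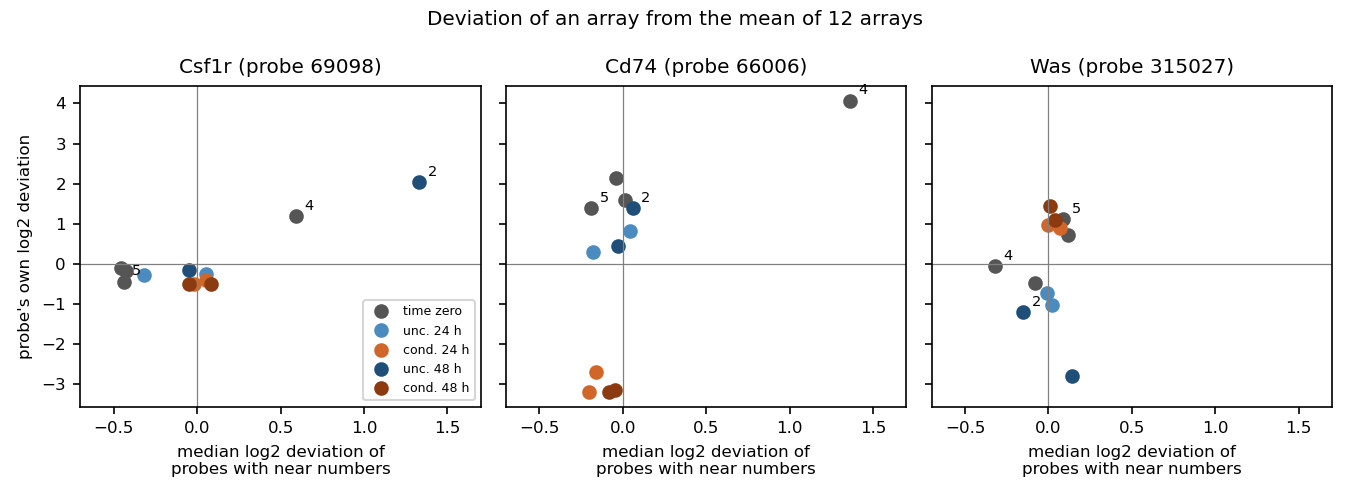
Log2 deviation of 3 probes from their mean over 12 arrays (vertical axis) against the median deviation of probes with near numbers (horizontal axis), 1 point per array, coloured by group. The numbers 4 and 5 mark those replicates of time zero, and 2 marks unconditioned 48 h replicate 2, which lies at 1.33 and 2.03 for Csf1r.

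Aif1 encodes IBA1, an actin-binding protein of macrophages. It gave 123.6, 86.6, 57.3 and 97.0 at time zero, and at 24 h 144.4 and 159.3 without and 116.3 and 153.5 with conditioning. At 48 h it gave 56.7 and 78.7 without and 85.0 and 82.1 with conditioning. All 4 arrays at 48 h were thus below all 4 at 24 h, with a change of -0.84 ± 0.31 that did not pass (limma adjusted p = 0.79). Arrays that did not overlap in this direction were found for 2.83% of all probes. On the smaller design Aif1 was dim, with 22.5 as its highest value.

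Laptm5, a lysosomal membrane protein of blood cells, had 2 probes for the same transcript on each design. On the larger design the brighter one ran from 26.1 to 170.5 and the other from 12.3 to 89.98, with r = -0.10 between them over 12 arrays. The brighter one changed from time zero by -1.13 ± 0.52 (limma adjusted p = 0.39) at 24 h and the other by 0.37 ± 0.57 (limma adjusted p = 0.68), so no direction is given for the gene. On the smaller design the brighter probe gave 79.2 and 44.7 at time zero, 87.2 and 50.8 on the conditioned arrays and 14.4 and 11.4 on the unconditioned ones. Those conditioned arrays also had the highest medians and the lowest quartile ratios of that design. The part of this in the Laptm5 values was not tested. On the larger design the difference between media was -0.41 ± 0.52 for the brighter probe and 0.59 ± 0.57 for the other, and the first turned to 0.24 without the 3 arrays that stood apart.

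Ptprc (CD45) and C1qb, a chain of complement C1q made by macrophages, were dim, with 6 to 8 of 12 arrays at the floor on the larger design. One Ptprc probe was at the floor on 8 and the other on 7 of 12 arrays, with highest values of 36.5 and 19.9, both on conditioned 24 h arrays. On the smaller design both probes were at the floor on all but 1 value of 25.5 at time zero. C1qb gave 13.9, 11.7 and 19.0 on 3 time zero arrays and a value at the floor on replicate 4. Its conditioned arrays were all 4 at the floor, and its highest value was 30.1 on unconditioned 48 h replicate 3. In the fit of all probes no Ptprc or C1qb change from time zero passed (limma adjusted p from 0.52 to 1 over these and the dim Csf1r probe).

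Was encodes the actin regulator WASP of blood cells, which activates the Arp2/3 complex. It gave 23.8, 21.4, 54.2 and 56.3 at time zero. The conditioned arrays gave 63.3 and 61.7 at 24 h, then 86.9 and 70.5 at 48 h. The unconditioned arrays gave 15.3 and 20.7 at 24 h and 10.6 and 3.25, at the floor, at 48 h. All 4 conditioned arrays were above all time zero arrays, and all 4 unconditioned arrays were below them. At the edges they were close, with 61.7 against 56.3 and 20.7 against 21.4. The share of all probes lying this way was not counted. Was was also listed from the contrast between media, so nothing is read from this order. The difference between media was 1.81 ± 0.82 at 24 h, 3.27 ± 0.82 at 48 h and 2.55 ± 0.58 for the times together. With a pseudocount of 0.5 of the median it was 0.92 over both times.

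Averaged over both media, Was differed from time zero by -0.26 ± 0.58 (limma adjusted p = 0.96) at 24 h and -0.65 ± 0.58 (limma adjusted p = 0.68) at 48 h. Split by medium, the unconditioned arrays differed by -1.18 ± 0.71 and -2.31 ± 0.71 and the conditioned arrays by 0.64 ± 0.71 and 0.99 ± 0.71, untested and sharing the time zero arrays. Of 8 measured genes of actin nucleation, all tested, 1 rose against time zero, Arpc1b, a subunit of the Arp2/3 complex. It rose by 0.99 ± 0.27 (limma adjusted p = 0.019) at 24 h and by 0.96 ± 0.27 (limma adjusted p = 0.022) at 48 h. Among all tested probes 3.14% passed at 24 h and 6.92% at 48 h, so nothing is read from this count of 1.

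**Figure D5:**
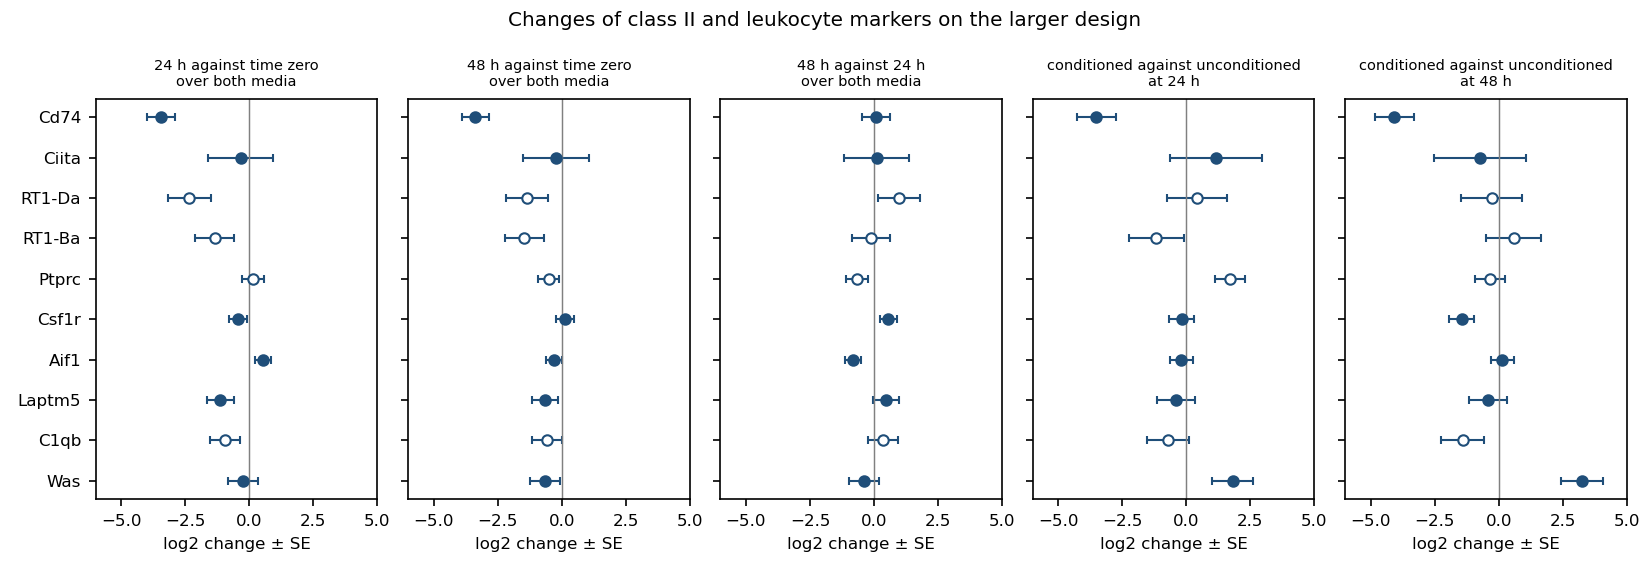
Log2 change ± SE, relative to the median of all probes, of the brightest probe of each gene on the larger design in 5 comparisons. Filled points are genes past the level for testing, open points genes below it from the fit of all probes, and the last 2 panels are a description because those contrasts were known when the genes were chosen. Cd74 is lowest in both panels against time zero, at -3.45 and -3.37.

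Over the 10 genes, 1 of the 6 tested passed at 24 h against time zero and 1 at 48 h, each time Cd74. These tests include the conditioned arrays known when Cd74 was chosen, so nothing is read from the count. Among all 23694 probes tested 3.14% passed at 24 h and 6.92% at 48 h, most of them higher than at time zero (73 of 743 and 369 of 1639 were lower). Between 48 h and 24 h none of the 6 passed by limma, against 0.0211% of all probes. Without adjustment, limma's p was under 0.05 for 1 of the 6, Aif1, and for 4.86% of all probes.

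Between media, arrays did not overlap over both times for 3 of the 6 genes, Cd74 and Csf1r lower and Was higher in conditioned medium. Of all probes 2.78% were lower and 8.63% higher in this way. At 24 h they did not overlap for 4 (Ciita and Was higher, Cd74 and Csf1r lower), beside 24.1% of all probes higher and 22.4% lower. The count uses the brighter Ciita probe, and the second Ciita probe was lower in conditioned medium, also without overlap. At 48 h it was again 4 (Aif1 and Was higher, Cd74 and Csf1r lower), beside 29.9% and 11.6%. The genes were chosen from this contrast, so nothing is read from these counts.

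Some genes passed in the other leukocyte lists, beside 3.14% of all tested probes at 24 h and 6.92% at 48 h against time zero. These lists are small and were drawn up with earlier results known, so nothing is read from their counts. Of 12 tested macrophage and myeloid genes, Cd14, the lipopolysaccharide co-receptor, rose by 0.78 ± 0.25 (limma adjusted p = 0.045) at 24 h and by 1.02 ± 0.25 (limma adjusted p = 0.01) at 48 h. Mpeg1, a pore-forming protein of macrophages, fell by 1.16 ± 0.28 (limma adjusted p = 0.026) at 48 h. The list's median change was -0.07 at 24 h and -0.56 at 48 h. Its summed intensity ran from 2843 to 4145 at time zero, 3630 to 4315 in unconditioned and 3576 to 3662 in conditioned medium at 24 h, and 2636 to 3424 and 3217 to 3314 at 48 h. These ranges overlapped between time zero and every later group, and the list's part in the fall of Cd74 was not tested.

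Of 8 tested pan-leukocyte genes, Arhgdib, abundant in blood cells, rose by 1.75 ± 0.27 (limma adjusted p = 0.00038) at 24 h and by 2.48 ± 0.27 (limma adjusted p = 1e-05) at 48 h. Cd48 rose by 0.99 ± 0.29 (limma adjusted p = 0.032) at 48 h. Of 7 tested endothelial genes 2 were higher and 1 lower at 24 h, and 6 were higher and 1 lower at 48 h. Their summed intensities were 1061 to 1599 at time zero and 2366 to 3858 at 48 h. Of the fibroblast genes 3 of 4 tested were higher at 48 h (median change 1.13), and of the smooth muscle and pericyte genes 3 of 5 (median 0.80). Among all tested probes 3.14% passed at 24 h and 6.92% at 48 h. These lists too were small and drawn up with earlier results known, so the counts are a description. The part of these lists in the leukocyte-list changes was not tested. None of the 3 tested lymphocyte genes and neither of the granulocyte and mast cell genes passed in the 3 time comparisons.

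Genes most like 3 of the markers over the 12 arrays were found by Pearson's r of log2 values, as a description of arrays that share groups and array effects. For Cd74 these were Lrrc27 (0.96), Hrc (0.95), Perm1 (0.94), Csdc2 (0.91) and Tmem86a (0.90), and none is a class II gene. After the adjustment for near numbers they were 0.93, 0.91, 0.93, 0.85 and 0.81. For Was they were Snx1 (0.95), Ripk1 (0.94), Pdpn (0.91), Oxsr1 (0.90) and Fnip1 (0.90), and 0.96, 0.94, 0.90, 0.89 and 0.70 after adjustment. For Csf1r they were Dxo (0.98), Txlna (0.95), Clstn1 (0.94), Coro1c (0.94) and Serhl2 (0.94). The likeness to Csf1r dropped to 0.76, 0.45, 0.10, 0.53 and 0.71 after adjustment. The numbers of those 5 probes lay within 4 blocks of that of Csf1r (a number is made of 1 of 328 blocks and 1 of 112 places). For the genes like Cd74 the distance ran from 1 block (Hrc) to 56 (Csdc2). For those like Was it ran from 1 block (Ripk1) to 260 (Fnip1).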

How the data were processed

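The deposited values, 2 series tables, are linear intensity from 1-colour CodeLink arrays, with biotin-labelled RNA per the labels. How they were scanned, background-corrected and normalized is not given in the sources used here, and the tables hold no detection calls. Intensities were scaled so that all arrays of a table shared its median, floored at 0.05 of it and taken to log2. Only probes whose mean log2 value exceeded the 30th percentile were tested, 23694 on the larger design (6934 would pass on the smaller). All 5 groups of the 12 larger arrays were fitted in R 4.3.3 with lmFit and trended eBayes of limma 3.58.1 (7 residual degrees of freedom), and p-values were Benjamini-Hochberg adjusted over all probes, with calls under 0.05. The 6 arrays of the smaller design gave values only, and the number of arrays limits the precision.

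The members, gene lists and tests were chosen with earlier results of these data known. All probes of the 10 genes were described, up to 3 genes of a list with the smallest p in a tested comparison were named, and the 5 genes most like Cd74, Was and the brightest marker by Pearson's r. Defining cell markers named with their levels were chosen after those were seen. A gene was represented by its probe with the highest mean. Platform symbols were matched to RefSeq by gene identifier for all 10 genes, and promoters were matched by symbol. Alternatives covered normalization, filter, floor, pseudocount, trend, array weights and arrays left out. The pipeline was tested on simulated data.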

Additional observations from a re-analysis of the deposited data

Results flagged for a closer look

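For 1 Ptprc probe on the larger design, the highest of the 4 time zero arrays (9.05, replicate 6) stood apart from the other 3, which were all at the floor, so its gap made up the whole range of the group (ratio 1, above Dixon's critical value for 4 arrays). With 3 values set to the same floor, any higher value gives this ratio, so the usual rate of 1 in 20 groups marked by chance does not hold for it.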

How the results depend on the processing

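The fall of Cd74 from time zero passed under every alternative that tested it, with -3.45 to -1.78 at 24 h and -3.37 to -1.70 at 48 h over the settings other than leaving out single arrays, the smallest sizes being under a pseudocount of 0.5 of the median. With single arrays left out the range was -3.75 to -2.88 at 24 h, and for 48 h it was -3.68 to -2.82. Every alternative used conditioned arrays, known to be low when Cd74 was chosen, so passing again gives no independent support. The unconditioned arrays alone were not tested against time zero under any setting. With the filter at the 50th percentile Cd74 was not tested, so 0 of the markers passed at either time, and arrays that did not overlap between media were counted for 1 gene with the times together, 1 gene at 24 h and 2 genes at 48 h. With single arrays left out these counts were 3, 4 to 5 and 4 to 6. The share of all probes whose arrays did not overlap was not counted under these settings. The genes were also chosen from this contrast, so nothing is read from these counts. No other marker was called under any setting run. Changes from time zero that were not called turned sign as follows. For Ciita at 24 h the change was 1.38 with array weights, 2.15 without the 3 arrays that stood apart, 0.01 with near numbers adjusted, and -1.28 to 1.17 with single arrays left out. For Ciita at 48 h it was 1.47, 0.82, 0.01 and -1.67 to 1.27. For Csf1r at 48 h it was -0.18 without the 3 arrays, -0.13 with near numbers adjusted and -0.39 to 0.64 with single arrays left out. Was gave 0.04 at 24 h under quantile normalization and 0.08 at 48 h with a floor of 0.2 of the median. Between 48 h and 24 h Cd74 gave -0.01 under quantile and -0.03 under cyclic loess normalization, -0.16 without the 3 arrays, -0.02 with near numbers adjusted and -0.16 to 0.30 with single arrays left out. Without the 3 arrays Ciita gave -1.33 and Laptm5 -0.18, and with single arrays left out they ran from -1.33 to 1.57 and from -0.18 to 1.13. Was gave 0.22 with the floor of 0.2, 0.03 with the pseudocount and -0.79 to 0 with single arrays left out. Between media over both times Ciita ran from -1.23 to 1.66 and Laptm5 from -1.07 to 0.24 with single arrays left out. The cause was not tested. Calls over all probes moved with the setting, from 342 to 2307 at 24 h against time zero, 743 as reported. No paired analysis was possible because the labels give no replicate numbers, and those used here only name arrays in order of deposit.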
